A study of Mus musculus with 40 samples.

Results

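The aquaporin genes Aqp1, Aqp4, Aqp7 and Aqp11 were followed in the extensor digitorum longus (EDL), a hindlimb muscle of the mouse made up mostly of fast fibers. They were chosen by name, after the low Aqp4 level in mutant muscle was known, and they were 4 of the 11 aquaporin genes in the count and TPM tables, which held 22844 genes. All 4 passed the filter for testing. Mice were 3 or 9 months old (3m, 9m). TSCmKO mice lacked Tsc1, which restrains the kinase complex mTORC1, through deletion of floxed alleles by Cre recombinase in skeletal muscle fibers. CON mice were littermates with the floxed alleles and without Cre, so that cells other than muscle fibers kept Tsc1 in both genotypes. Before dissection, mice of each age and genotype received vehicle or rapamycin (RM), an mTORC1 inhibitor, by intraperitoneal injection for 3 days, at 4 mg/kg per the labels, although a higher daily amount stands in the text of the study, so that the dose is uncertain. The 8 groups held 5 mice and 5 libraries each, 40 libraries in all.

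Aquaporins are channels in cell membranes through which water moves along osmotic gradients, and the aquaglyceroporins among them also pass glycerol. Aquaporin-4 is the main water channel in the membrane of fast muscle fibers, where the dystrophin-associated complex holds it in place. Aquaporin-1 is known from capillary endothelium and red blood cells, aquaporin-7 is an aquaglyceroporin best known from adipocytes, and aquaporin-11 is an intracellular channel of a more distant branch of the family.

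In the GRCm38 build, Aqp4 (ENSMUSG00000024411) spans chr18:15389496-15410982 on the minus strand, Aqp1 (ENSMUSG00000004655) chr6:55336432-55348555 on the plus strand, Aqp7 (ENSMUSG00000028427) chr4:41033074-41048139 on the minus strand and Aqp11 (ENSMUSG00000042797) chr7:97724006-97738289 on the minus strand. Reads were assigned to whole transcripts, so that the values do not separate exons or isoforms. Of all stretches of 31 bases in the annotated transcripts, Aqp1 and Aqp11 shared 0 with transcripts of another gene, Aqp4 shared 5 (0.0833%) with Ids, and Aqp7 shared 171 (6.85%) with 844 other genes, so that Aqp7 counts are less certain than the rest.

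Total counts ran from 8883870 to 35224669 per library. Tsc1 was measured at 17.8 to 35.8 CPM (counts relative to library size, after TMM scaling) in the 20 TSCmKO libraries and at 51.3 to 134 CPM in the 20 CON libraries, without overlap. Markers of fast fibers summed to 86096 to 176643 CPM and those of slow fibers to 44.6 to 809 CPM, so that transcripts of the fast-fiber list outweighed those of the slow-fiber list in every group. The fast-fiber list was Acta1, Ckm, Mylpf, Tnnt3, Actn3, Myh4 and Myh1, of which Acta1 and Ckm are not confined to fast fibers. No marker list had a gene at 0 in a whole group. In whole muscle, fewer cells of a type and less RNA per cell cannot be told apart. The labels gave overlapping but mostly shorter insert sizes for the younger mice, with means of 175 to 239 nt against 223 to 308 nt for the older mice.

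Aqp1 supplied most aquaporin transcripts in this muscle, and Aqp4 came second in control mice. On the TPM scale, which divides by transcript length and allows genes to be compared, Aqp1 stood at 253 ± 47.6 and Aqp4 at 29.5 ± 8.50 in 3mCON (SD, n = 5). Aqp7 was measured at 12.2 ± 4.89 TPM and Aqp11 at 1.09 ± 0.358 TPM in the same group. Aqp4 made up 9.99% ± 2.46 of the summed TPM of the 11 family genes in 3mCON and 7.90% ± 1.501 in 9mCON. In TSCmKO mice given vehicle this share was 0.0881% ± 0.0574 at 3 months and 0.171% ± 0.108 at 9 months, below Aqp11 in both groups. With rapamycin, the share of Aqp4 in TSCmKO muscle was 1.09% ± 0.211 at 3 months and 0.578% ± 0.174 at 9 months. The summed TPM of the family was highest in 3mCON+RM (369 ± 46.6) and lowest in 9mTSCmKO+RM (155 ± 28.4), and Aqp1 held at least 85.3% of it in every group mean.

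**Figure D1:**
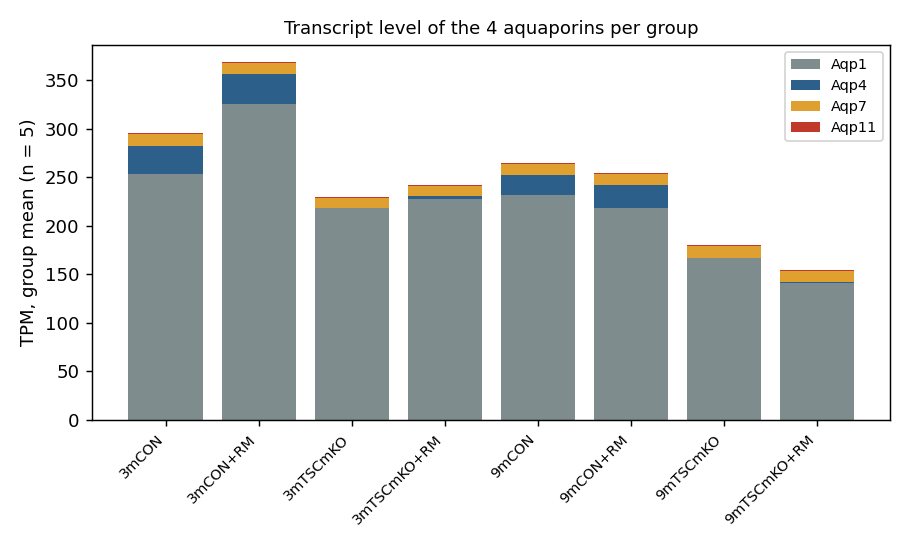
Stacked bars give the mean TPM (y axis, n = 5 libraries) of Aqp1, Aqp4, Aqp7 and Aqp11 in each of the 8 groups (x axis). Aqp1 fills most of every bar, from 141 TPM in 9mTSCmKO+RM to 325 TPM in 3mCON+RM, and the Aqp4 segment of 20.6 to 31.6 TPM in the CON groups is thin or not visible in the TSCmKO groups.

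Aqp4 separated the 4 TSCmKO groups from the 4 CON groups in every library. In control muscle the 5 libraries of 3mCON held 90.1, 102, 49.1, 64.6 and 92 CPM, and those of 9mCON held 55.5, 55.9, 62.5, 55.0 and 63.0 CPM. In 3mTSCmKO the libraries held 0.198, 0.457, 0.257, 1.31 and 0.756 CPM, from 3 to 41 counts each. In 9mTSCmKO they held 0.832, 0.353, 1.34, 0.289 and 1.27 CPM, from 5 to 29 counts each. The lowest control library thus lay far above the highest TSCmKO library at either age. The vehicle groups of the 2 genotypes are the ones for which the gene was chosen, so that their difference is described without a test: the mean in TSCmKO was 0.749% of that in CON at 3 months and 1.40% at 9 months. Among all genes tested, 19.6% at 3 months and 16.0% at 9 months had vehicle groups without overlap.

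Rapamycin raised Aqp4 in TSCmKO muscle at both ages. The libraries of 3mTSCmKO+RM held 7.23, 8.02, 6.63, 6.08 and 6.64 CPM, and those of 9mTSCmKO+RM held 2.90, 2.94, 2.77, 1.45 and 2.07 CPM. Every treated library lay above every vehicle library of the same age, narrowly so at 9 months, where the lowest treated value of 1.45 stood next to a highest vehicle value of 1.34 CPM. Among all genes tested, 21.1% at 3 months and 15.1% at 9 months had groups without overlap in this comparison. At 3 months Aqp4 rose 10.2-fold (95% interval 6.73 to 15.5), a log2 fold change of 3.35 with a standard error of 0.297 (edgeR quasi-likelihood test with Benjamini-Hochberg adjustment, adjusted p = 7.47e-11). At 9 months it rose 2.89-fold (1.83 to 4.55), a log2 fold change of 1.53 ± 0.325 (SE, edgeR adjusted p = 0.000377). The test passed 23.6% of all genes at 3 months and 32.6% at 9 months, in either direction. Both comparisons use the vehicle TSCmKO libraries in which the low level was first seen. On the log2(TPM + 0.5) scale, where a pseudocount damps low values, the limma estimates were smaller, 2.14 at 3 months and 0.81 at 9 months, and both passed.

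The rapamycin response of Aqp4 in TSCmKO muscle was smaller at 9 than at 3 months by 1.82 ± 0.458 on the log2 scale (SE, interaction term, value -1.82, edgeR adjusted p = 0.0288), a term that passed for 1.91% of genes. This call was not firm. Over all alternative fits, the adjusted p of the term ran from 0.00089 to 0.1001. It was above 0.05 without 3mTSCmKO replicate 1 (0.0534), replicate 2 (0.0533) or replicate 3 (0.0522), without 3mTSCmKO+RM replicate 2 (0.0521), and without 9mTSCmKO replicate 3 (0.1001) or replicate 5 (0.0560). It was also above 0.05 without the filter (0.0537) and in a fit to the groups compared alone (0.0979). In CON the same term was 0.18 (95% interval -0.42 to 0.79, edgeR adjusted p = 0.999) and passed for 0.938% of genes.

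Of the 7 genes of the fast-fiber list, 3 rose with rapamycin in 3mTSCmKO and 4 in 9mTSCmKO, where 23.6% and 32.6% of all genes passed. Their summed level, with Acta1 and Ckm included, was 89030 to 157285 CPM in 3mTSCmKO against 141360 to 173821 CPM in 3mTSCmKO+RM. At 9 months it was 86096 to 104560 CPM with vehicle and 132047 to 161236 CPM with rapamycin. In control muscle at 9 months the sum was 132364 to 146679 CPM with vehicle and 167305 to 176643 CPM with rapamycin, also without overlap, and 1 of the 7 genes rose, where 11.8% of all genes passed. The part of these markers in the Aqp4 result was not tested.

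**Figure D2:**
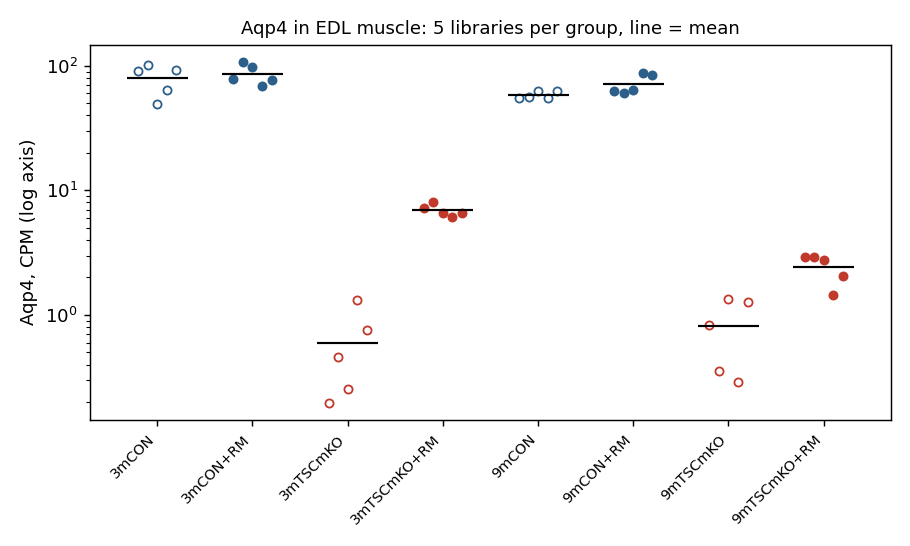
Each point is the Aqp4 level of 1 library in CPM on a log axis (y), for the 8 groups (x), with open symbols for vehicle, filled symbols for rapamycin, blue for CON and red for TSCmKO, and lines at group means. The 5 libraries of 3mTSCmKO+RM sit between 6.08 and 8.02 CPM, above all 3mTSCmKO libraries and below all CON libraries.

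In control muscle a change of Aqp4 with rapamycin was not detected. The libraries of 3mCON+RM held 78.9, 108, 98.3, 69.1 and 77.3 CPM, and those of 9mCON+RM held 62.5, 60.5, 64.5, 87.9 and 84.6 CPM. Values overlapped with the vehicle libraries of the same age. The log2 fold change was 0.12 at 3 months (95% interval -0.31 to 0.55, edgeR adjusted p = 0.965) and 0.30 at 9 months (-0.13 to 0.73, edgeR adjusted p = 0.413). The test passed 0.679% of all genes in 3mCON and 11.8% in 9mCON.

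Under rapamycin, Aqp4 stayed far below the control level. Its mean in 3mTSCmKO+RM was 8.02% of that in 3mCON+RM, a log2 fold change of -3.64 ± 0.239 (SE, edgeR adjusted p = 1.08e-13). In 9mTSCmKO+RM it was 3.37% of that in 9mCON+RM, with a log2 fold change of -4.88 ± 0.266 (SE, edgeR adjusted p = 1.88e-16). Markers of slow fibers also differed in this comparison at 9 months, where 3 of 4 were higher in TSCmKO (median log2 fold change 1.57, and -0.01 over all genes). Their summed level was 199 to 568 CPM against 71.1 to 229 CPM in 9mCON+RM. The fast-fiber list summed to 132047 to 161236 CPM in 9mTSCmKO+RM and 167305 to 176643 CPM in 9mCON+RM, without overlap. At 3 months its sums were 141360 to 173821 CPM in 3mTSCmKO+RM and 135077 to 159002 CPM in 3mCON+RM, with overlap. The part of both lists in the Aqp4 result was not tested. Groups of Aqp4 did not overlap at either age, which held for 14.3% of all genes at 3 months and 13.6% at 9 months. The test passed 10% and 20.6% of all genes, respectively. The genotype difference under rapamycin was 1.25 larger on the log2 scale at 9 than at 3 months (value -1.25, SE 0.334), and this term did not pass the test (edgeR adjusted p = 0.121), while DESeq2 gave an adjusted p of 0.0283 and a fit to the 4 rapamycin groups alone 0.0148, within a range of 0.0148 to 0.286 over all alternatives. It passed for 0.222% of genes.

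Between the ages, Aqp4 was lower at 9 months in TSCmKO+RM muscle, where the groups did not overlap and the log2 fold change was -1.51 ± 0.259 (SE, edgeR adjusted p = 7.31e-05). The age test passed 22.8% of all genes in these mice, and 17.1% had groups without overlap. A fit with insert size as a term and without 9mTSCmKO+RM replicate 5, whose label gave no insert size, left this call in place. Insert sizes were 179 to 239 nt in 3mTSCmKO+RM and 262 to 302 nt in 9mTSCmKO+RM, without overlap. This fit therefore cannot separate age from insert size. No age difference of Aqp4 passed in CON (-0.44, 95% interval -0.87 to -0.02, edgeR adjusted p = 0.269), CON+RM (-0.26, -0.69 to 0.17, adjusted p = 0.447) or TSCmKO (0.32, -0.44 to 1.07, adjusted p = 0.530). Fibroblast and tendon markers also differed with age in TSCmKO+RM, with 7 of 8 lower at 9 months and a summed level of 406 to 697 CPM against 1650 to 3324 CPM. This fall was not particular to TSCmKO+RM. In CON+RM the sum was 178 to 743 CPM at 9 months against 953 to 2762 CPM at 3 months. In TSCmKO it was 357 to 1169 CPM against 1085 to 2042 CPM, with overlap. The part of these markers in the Aqp4 result was not tested. Ordered by mean, Aqp4 rose from 3mTSCmKO and 9mTSCmKO, which overlapped, through 9mTSCmKO+RM and 3mTSCmKO+RM, which overlapped with no neighbor, to 9mCON, 9mCON+RM, 3mCON and 3mCON+RM, of which each overlapped with its neighbors among the control groups.

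**Figure D3:**
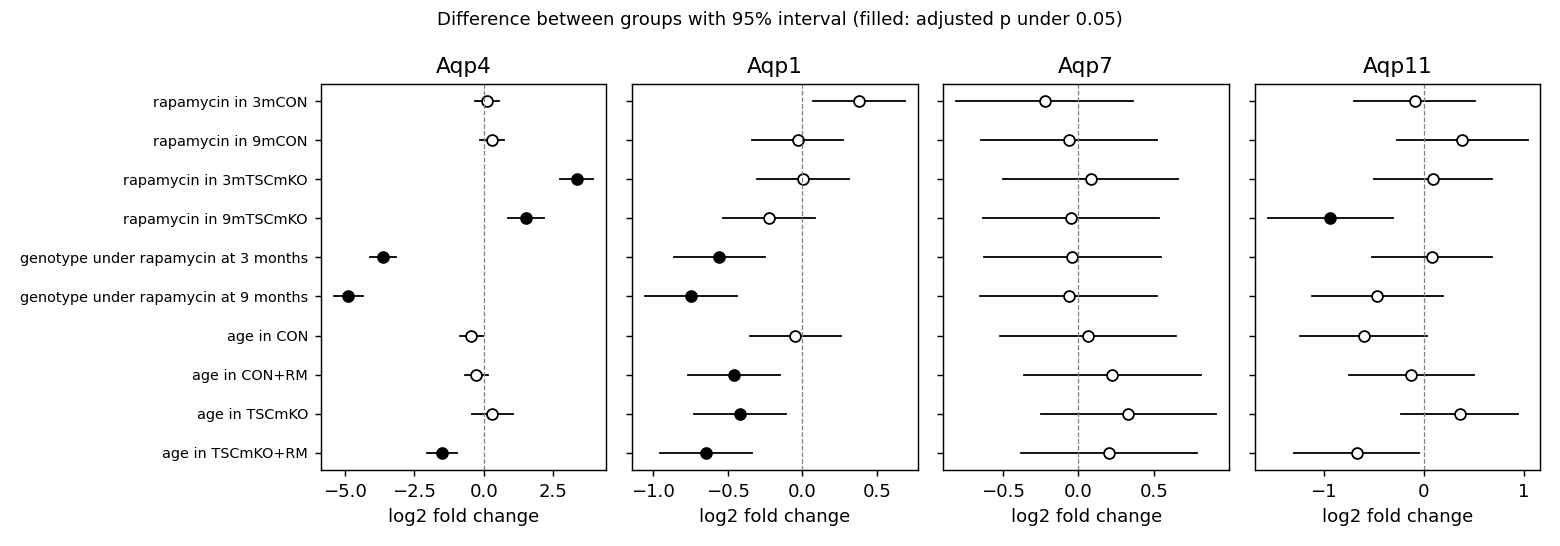
Points give the log2 fold change (x axis, a separate scale per panel) of Aqp4, Aqp1, Aqp7 and Aqp11 in 10 comparisons between pairs of groups (y axis), with lines for 95% intervals and filled points for an adjusted p under 0.05. Age is 9 months relative to 3 months and genotype is TSCmKO relative to CON. Aqp4 is filled in both rapamycin comparisons of TSCmKO muscle, at 3.35 and 1.53, and in both genotype comparisons, at -3.64 and -4.88, and all points of Aqp7 are open.

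The genes of the complex that anchors aquaporin-4 moved by less than 1 on the log2 scale with rapamycin. Of 15 dystrophin-associated genes and partners, 14 were tested, and Kcnj10 fell below the filter. With rapamycin, 4 of 14 rose in 9mTSCmKO, among them Dmd, Sgca and Sgcd, near the 32.6% of all genes that passed there, with a median log2 fold change of 0.18 over the list and -0.04 over all genes. In 3mTSCmKO, 3 rose, among them Sgca, and 2 fell (Dtna and Dag1), where 23.6% of all genes passed, with a median of 0.20 over the list and 0.01 over all genes. Sgca, which encodes alpha-sarcoglycan, rose by 0.56 and 0.66 at the 2 ages on the log2 scale.

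Under rapamycin, 2 of the 14 genes were lower in TSCmKO than in CON at each age, against 20.6% of all genes passing at 9 months and 10% at 3 months. With age, 6 were lower and 1 higher at 9 months in TSCmKO (37.4% of all genes passed), 5 were lower in TSCmKO+RM (22.8%), and 2 were lower and 1 higher in CON+RM (14.6%). Nos1, which encodes the neuronal nitric oxide synthase, was measured at 142 ± 24.1 CPM in 3mTSCmKO and 39.98 ± 26.3 CPM in 9mTSCmKO (log2 fold change -1.83, edgeR adjusted p = 0.000263). Sgcd, encoding delta-sarcoglycan, fell by 1.09 on the log2 scale in TSCmKO (adjusted p = 0.000638), and Sntb1, encoding beta-1-syntrophin, fell by 1.10 in TSCmKO+RM (adjusted p = 0.00228). Sntb1 was measured at 6.46 ± 4.25 CPM in 3mTSCmKO+RM, a wide spread, and at 3.02 ± 0.980 CPM in 9mTSCmKO+RM (SD).

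Among the 5 genes whose log2 levels ran most like Aqp4 over the 40 libraries were Afap1l1 (Pearson r = 0.952), Phykpl (0.947), Egflam (0.940) and Efcab6 (0.935), out of 10371 genes compared. Within groups, after the group means were removed, r was between -0.13 and 0.23 for the 5, so that the likeness lay in the group means. Egflam encodes pikachurin, an extracellular ligand of dystroglycan. Efcab6 was measured at 21.7 CPM in 3mCON, 3.30 in 3mTSCmKO and 12.1 in 3mTSCmKO+RM, as group means.

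Aqp1 was lower in TSCmKO than in CON muscle under rapamycin at both ages. The libraries of 9mCON+RM held 351, 240, 433, 316 and 335 CPM, and those of 9mTSCmKO+RM held 233, 160, 229, 162 and 215 CPM. These groups did not overlap, although the lowest control and the highest TSCmKO library were close, and 13.6% of all genes had groups without overlap here. The log2 fold change was -0.75 ± 0.153 (SE, edgeR adjusted p = 0.000311). At 3 months the libraries held 439, 594, 358, 440 and 468 CPM in 3mCON+RM and 273, 283, 359, 282 and 366 CPM in 3mTSCmKO+RM, with overlap at the edge. The log2 fold change was -0.56 ± 0.152 (SE, edgeR adjusted p = 0.0130), and it was -0.45 with an adjusted p of 0.0670 without 3mCON+RM replicate 2, the highest library, within a range of 0.00516 to 0.0670 over all alternatives. The test passed 20.6% of all genes at 9 months and 10% at 3 months. Under vehicle, described without a test, Aqp1 in TSCmKO stood at 88.2% of CON at 3 months and 68.0% at 9 months.

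Rapamycin left Aqp1 without a passing change in any of the 4 groups. The largest estimate was in 3mCON, where the vehicle libraries held 290, 380, 268, 415 and 414 CPM against the rapamycin values above, a log2 fold change of 0.38 (95% interval 0.07 to 0.69, edgeR adjusted p = 0.360). In 9mCON it was -0.03 (-0.34 to 0.28, adjusted p = 0.932), in 3mTSCmKO 0.01 (-0.30 to 0.31, adjusted p = 0.987) and in 9mTSCmKO -0.22 (-0.53 to 0.09, adjusted p = 0.273).

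Aqp1 was also lower at 9 than at 3 months in 3 of the 4 age comparisons. In TSCmKO+RM the 2 ages did not overlap and the log2 fold change was -0.65 ± 0.153 (SE, edgeR adjusted p = 0.00212). In TSCmKO the libraries held 255, 303, 284, 360 and 355 CPM at 3 months and 214, 263, 229, 233 and 226 CPM at 9 months, with 1 older library inside the younger range, and the log2 fold change was -0.42 (adjusted p = 0.0280). In CON+RM it was -0.46 (adjusted p = 0.0369), and in CON, where 9mCON held 419, 383, 333, 282 and 294 CPM, it was -0.05 (95% interval -0.35 to 0.26, adjusted p = 0.912). The age test passed 22.8% of all genes in TSCmKO+RM, where 17.1% had groups without overlap, 37.4% in TSCmKO, 14.6% in CON+RM and 1.02% in CON. Only the call in TSCmKO+RM remained in every fit run. Insert sizes of the 2 ages did not overlap in TSCmKO+RM or CON+RM, where a fit with insert size cannot separate it from age. With insert size as a term, the adjusted p was 0.0888 in TSCmKO and 0.0654 in CON+RM. Over all alternatives it ran from 0.0219 in TSCmKO and from 0.00540 in CON+RM. Leaving out 1 library gave adjusted p-values up to 0.101 in TSCmKO (above 0.05 without 3mTSCmKO replicates 4 or 5 or 9mTSCmKO replicates 1 or 3) and up to 0.134 in CON+RM (above 0.05 in 8 of 10 fits, all but those without replicate 3 of either age).

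**Figure D4:**
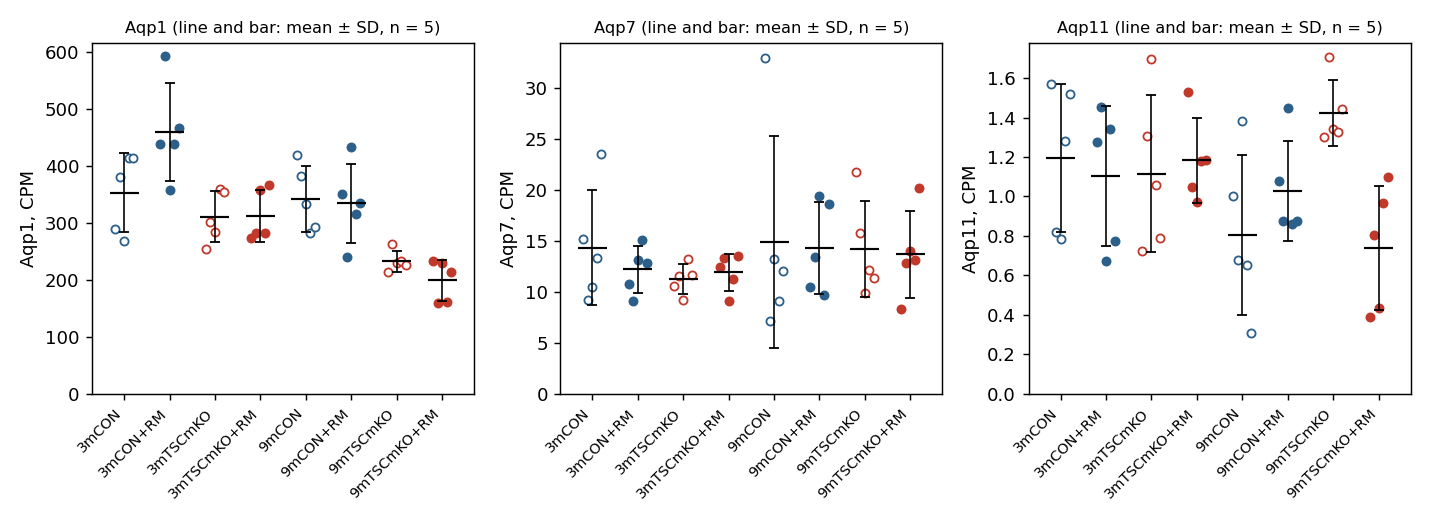
Each point is 1 library, in CPM (y axis, from 0), for Aqp1, Aqp7 and Aqp11 in the 8 groups (x axis), with open symbols for vehicle, filled symbols for rapamycin, blue for CON and red for TSCmKO, and lines and bars for mean ± SD. The 9-month TSCmKO groups of Aqp1 lie between 160 and 263 CPM, and Aqp7 has 1 library at 33.0 CPM in 9mCON.

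Endothelial markers were set beside Aqp1. Of 11 endothelial genes in the tables, 3 were lower in TSCmKO than in CON under rapamycin at 9 months, namely Pecam1, Tie1 and Esam, a share near the 20.6% of all genes that passed, and at 3 months 0 of 11 passed the edgeR test, with 0 at an unadjusted p under 0.05. The median log2 fold change of the list was -0.32 at 9 months and -0.03 at 3 months. Their summed level was 276 to 524 CPM in 9mTSCmKO+RM and 390 to 619 CPM in 9mCON+RM. With age, 6 were lower in TSCmKO, 5 in TSCmKO+RM and 1 in CON+RM, beside 37.4%, 22.8% and 14.6% of all genes passing in either direction. Their part in the Aqp1 results was not tested. Esam, an adhesion molecule of endothelial junctions, was also among the 5 genes most like Aqp1 over the 40 libraries (r = 0.796), beside Pde2a (0.826), Scarb1 (0.795), S1pr1 (0.776) and Sult1a1 (0.771), and these values remained between 0.57 and 0.74 within groups.

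A ratio chosen after the values were seen set Aqp1 against the summed endothelial markers of the same library. It is given as a description. An exact test of the ratio did not pass in either genotype comparison under rapamycin (exact test, adjusted p = 0.119 at both ages). It was 0.548 ± 0.0848 in 9mTSCmKO+RM and 0.734 ± 0.104 in 9mCON+RM (SD, n = 5), with libraries from 0.437 to 0.667 and from 0.573 to 0.835. At 3 months under rapamycin it was 0.610 ± 0.0976 in TSCmKO and 0.890 ± 0.195 in CON, with libraries from 0.486 to 0.755 and from 0.691 to 1.22. The groups overlapped at both ages. With vehicle the ratio was 0.642 in 3mTSCmKO, 0.633 in 9mTSCmKO, 0.651 in 3mCON and 0.745 in 9mCON, so that 3mCON+RM had the highest mean of the 8 groups. Red blood cell markers, another known source of Aqp1, summed to 203 to 9044 CPM over all libraries, and their part in the Aqp1 results was not tested. Of 7 such genes, 5 were lower with age in TSCmKO, where 37.4% of all genes passed and 3mTSCmKO replicate 3 alone held 9044 CPM against 468 to 956 CPM in the other 4 younger libraries. Under rapamycin at 9 months, 9mCON+RM replicate 1 held 2831 CPM against 235 to 543 CPM in the rest of its group and 355 to 752 CPM in 9mTSCmKO+RM.

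**Figure D5:**
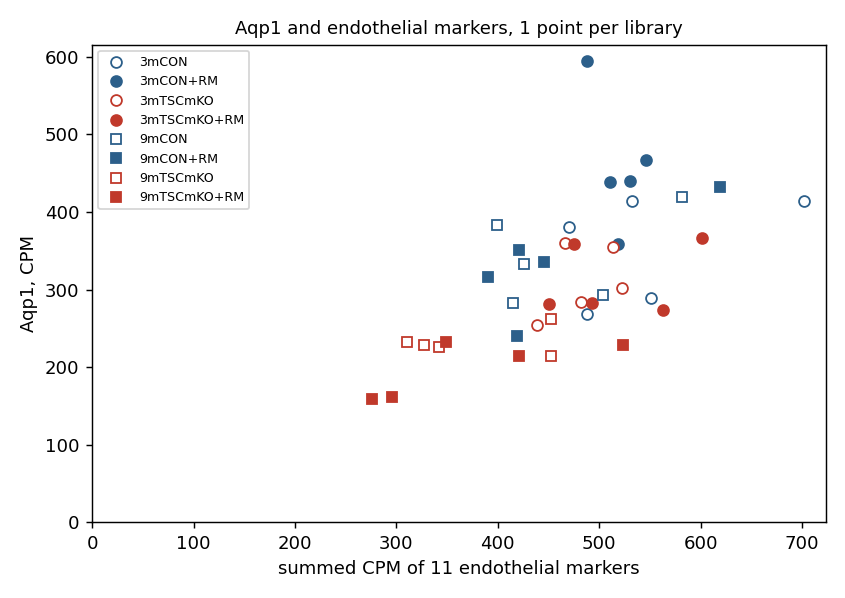
Each point is 1 library, with the summed CPM of 11 endothelial markers (x axis) and the Aqp1 level in CPM (y axis), both from 0, circles for 3 months, squares for 9 months, open symbols for vehicle, filled symbols for rapamycin, blue for CON and red for TSCmKO. The 9-month TSCmKO libraries lie at the lower left, with 276 to 524 CPM of markers and 160 to 263 CPM of Aqp1.

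No comparison of Aqp7 passed the test. Its group means ran from 11.3 CPM in 3mTSCmKO to 14.9 CPM in 9mCON, all groups overlapped with their neighbors in that order, and single libraries ran from 7.17 to 33.0 CPM. Rapamycin in TSCmKO gave a log2 fold change of 0.08 at 3 months (95% interval -0.50 to 0.66, edgeR adjusted p = 0.877) and -0.05 at 9 months (-0.63 to 0.53, adjusted p = 0.915). Under rapamycin, TSCmKO differed from CON by -0.04 at 3 months (-0.62 to 0.55) and -0.06 at 9 months (-0.65 to 0.52).

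Of genes that handle glycerol and triglyceride, with which aquaporin-7 works in fat, 16 were in the tables and all of these were tested. With rapamycin, 1 rose and 5 fell in 3mTSCmKO, where 23.6% of all genes passed, and 3 fell in 9mTSCmKO, where 32.6% of all genes passed. The median log2 fold changes were -0.25 and -0.19 over the list, and 0.01 and -0.04 over all genes. Gk, which encodes glycerol kinase, fell in both. At 3 months it stood at 3.57 ± 1.68 CPM with vehicle and 1.29 ± 0.372 CPM with rapamycin (log2 fold change -1.49, edgeR adjusted p = 4.49e-05), and at 9 months it stood at 9.66 ± 2.15 and 3.01 ± 0.735 CPM (-1.69, adjusted p = 1.83e-06). In 9mCON Gk fell by 0.90 on the log2 scale (adjusted p = 0.0412), and in 3mCON the log2 fold change was -0.52 (adjusted p = 0.619). G0s2, which encodes an inhibitor of the lipase ATGL, rose with rapamycin in 3mTSCmKO by 1.58 (adjusted p = 0.00101).

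Under rapamycin, Gk was higher in TSCmKO than in CON at 9 months (1.55, edgeR adjusted p = 8.72e-05) and did not pass at 3 months (-0.21, adjusted p = 0.762), and this difference between the ages passed as a term of its own (1.77, adjusted p = 0.0450). In the same 9-month comparison 3 of the 16 genes were higher and 4 lower, where 20.6% of all genes passed. Plin4, which encodes a lipid droplet coat protein, was measured at 263 ± 37.5 CPM in TSCmKO and 574 ± 162 CPM in CON (-1.13, adjusted p = 0.000219), and G0s2 was also lower (-1.46, adjusted p = 0.00240). At 3 months 1 was higher and 2 lower, where 10% of all genes passed. With age, 2 of the 16 were higher and 4 lower both in TSCmKO and in TSCmKO+RM, and 1 was lower in CON+RM, where 37.4%, 22.8% and 14.6% of all genes passed. Gk was higher at 9 months in TSCmKO (1.42) and TSCmKO+RM (1.22), while Plin1 and Cidec, lipid droplet proteins of adipocytes, were lower in both (-1.71 and -2.63 in TSCmKO, -1.88 and -1.99 in TSCmKO+RM). Gpd2, encoding the mitochondrial glycerol phosphate dehydrogenase, was lower with age in TSCmKO (-1.02), G0s2 was lower in TSCmKO+RM (-1.04), and Cidec was lower in CON+RM (-2.28). Of 8 adipocyte markers, 6 were lower with age in TSCmKO, 5 in TSCmKO+RM and 1 in CON+RM, beside 37.4%, 22.8% and 14.6% of all genes passing, and their part in these age differences was not tested.

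Aqp11 had the lowest mean of the 4 in all groups but 3mTSCmKO and 9mTSCmKO, where Aqp4 was lower, and it rested on few counts, 5 to 47 per library. It fell with rapamycin in 9mTSCmKO. The vehicle libraries held 1.30, 1.71, 1.34, 1.33 and 1.44 CPM and the rapamycin libraries 0.391, 0.807, 0.435, 0.965 and 1.10 CPM, without overlap. In this comparison 15.1% of all genes had groups without overlap and 32.6% passed the test. The log2 fold change was -0.93 ± 0.308 (SE, edgeR adjusted p = 0.0180). The adjusted p was 0.0514 without 9mTSCmKO+RM replicate 1, 0.0657 without replicate 3 and 0.0777 in a fit to these 2 groups alone, within a range of 0.00993 to 0.0777 over all alternatives. In 3mTSCmKO the log2 fold change was 0.09 (95% interval -0.49 to 0.68, adjusted p = 0.861), and the difference between the ages did not pass (-1.03, SE 0.423, adjusted p = 0.181). No other comparison of Aqp11 passed. Under rapamycin, TSCmKO differed from CON by 0.08 at 3 months and -0.46 at 9 months (adjusted p = 0.931 and 0.346), and under vehicle, as a description, 9mTSCmKO stood at 177% of 9mCON.

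Among 17 tested genes of cell volume and osmolyte control, in which water channels take part, 1 rose and 4 fell with rapamycin in 3mTSCmKO, and 2 rose and 2 fell in 9mTSCmKO, near or below the 23.6% and 32.6% of all genes that passed. The medians were 0.00 and -0.23 over the list, and 0.01 and -0.04 over all genes. Slc12a2, which encodes the sodium-potassium-chloride cotransporter NKCC1, was measured at 168 ± 47.2 CPM in 3mTSCmKO with vehicle and at 76.0 ± 8.14 CPM with rapamycin (-1.14, edgeR adjusted p = 5.41e-05). Sgk1, a kinase that regulates ion transport, stood at 302 ± 55.8 CPM and 135 ± 25.2 CPM in these groups (-1.16, adjusted p = 0.000128). With age, 3 of the 17 were higher and 5 lower in TSCmKO, 1 higher and 2 lower in TSCmKO+RM and 2 lower in CON+RM, where 37.4%, 22.8% and 14.6% of all genes passed. Slc12a2 was among those lower at 9 months in TSCmKO (-1.03, adjusted p = 0.000167). Between the genotypes under rapamycin, 1 was higher and 1 lower at 9 months and 1 was lower at 3 months, where 20.6% and 10% of all genes passed. Sgk1 was lower in TSCmKO than in CON at both ages (-0.73 at 3 months and -0.89 at 9 months), and Stk39, a kinase that acts on cation-chloride cotransporters, was higher at 9 months (0.60).

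The other 7 aquaporin genes in the tables stayed below the filter in all groups. Aqp3, an aquaglyceroporin of epithelia, came nearest, with group means of 0.160 to 0.511 CPM and 2 to 16 counts per library, below the lowest mean of 0.739 CPM for Aqp11. Aqp8 reached 0.358 CPM and Aqp9 0.182 CPM as their highest group means. Aqp2, Aqp5, Aqp6 and Mip had at most 8 counts in any library. No level can be assigned to these 4 at this depth.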

How the data were processed

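The deposited tables held, per gene and library, the estimated counts and the TPM that the authors computed from single-end, stranded mRNA reads. Per the labels and the study's methods, the authors trimmed reads with Cutadapt 1.9.1, assigned them with kallisto 0.43.1 to Ensembl protein-coding transcripts of GRCm38, shared a read that fitted several transcripts equally among them, and summed values per gene. Every value column had a sample label, and total counts per library are given above.

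Counts were rounded to whole numbers and fitted with edgeR 4.0.16 in R 4.3.3: genes with at least 1 CPM in 5 or more libraries (13543 genes, which held 99.8% or more of all counts), scaling by TMM, 8 group means over 40 libraries, robust quasi-likelihood F-tests, two-sided, Benjamini-Hochberg adjustment over all genes tested and a threshold of 0.05. There were 13 tested contrasts. Every adjusted p in the text without another name is from this fit. Genotype under vehicle, and terms that contain it, were not tested, because the genes had been chosen with it in view. Levels are TMM-scaled CPM. Alternatives were upper-quartile scaling, no filter, insert size as a term, the replicate number as a block, only the groups compared, limma 3.58.1 on log2(TPM + 0.5), DESeq2 1.42.0, and leaving out each library in turn.

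Likeness is Pearson's r of log2(CPM + 1) over 40 libraries among tested genes with a mean of at least 5 CPM in a group, and the 5 highest are named. Of the gene lists (anchoring complex, glycerol and triglyceride, cell volume), counts are given over all members tested in the comparisons where members are named, and names for Gk and called members with a log2 fold change of at least 1 in size. Other list genes named here were chosen after their values were seen. The 4 aquaporins, the lists and the markers were chosen with earlier results of these data known. Replicates were separate mice, so that p-values measure the spread between mice. The glycerol list held Gk also under its older symbol Gyk, counted once. Cldn5, Lrrc8a and Aqp12 were not analysed here, and some genes that these rules would name are not reported here.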

Additional observations from a re-analysis of the deposited data

Results flagged for a closer look

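Aqp7 in 9mCON replicate 1 stood apart from its group. The library held 33.0 CPM against 7.17 to 13.2 CPM in the other 4, and the gap to the nearest library was 0.765 of the range of the group. Of 32 sets of 5 libraries checked this way for the 4 aquaporins, 1 stood apart, and chance gives about 1 in 20. The same library held 7071 CPM of red blood cell markers against 355 to 1279 CPM in the rest of the group, while 3mTSCmKO replicate 3, with 9044 CPM of these markers, held 9.25 CPM of Aqp7. Its adipocyte markers summed to 395 CPM, inside the range of 187 to 612 CPM of the other 9mCON libraries. Whether these values bear on each other was not tested.

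The response of Aqp4 to rapamycin in TSCmKO muscle had an age term of -1.82 on the log2 scale (9 minus 3 months, edgeR adjusted p = 0.0288). The call was lost in 6 of 20 fits without 1 library (adjusted p up to 0.1001), without the filter (0.0537) and with only the groups compared (0.0979). At each age all 5 treated libraries lay above all 5 vehicle libraries.

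Aqp8, a water channel of gut and liver below the filter for testing, had at least 3 counts in every TSCmKO library given rapamycin, of which 4 of 5 at 3 months and 3 of 5 at 9 months had more than 3. Its mean was 0.295 CPM in 3mTSCmKO+RM and 0.358 CPM in 9mTSCmKO+RM, from 3 to 12 counts per library in both groups. Every one of these libraries lay above every CON+RM library of the same age, which held 0 to 1 counts at 3 months and 0 to 3 counts at 9 months, at or below a floor of 3 counts per library, so that no fold change is given. At 9 months a library of 3 counts stood on each side, so that their order rests on library size. Among all genes tested, 14.3% at 3 months and 13.6% at 9 months had groups without overlap in this comparison. With vehicle the libraries held 0 to 7 counts in 3mCON and 0 to 3 in 3mTSCmKO, with means of 0.0920 and 0.0774 CPM, and 0 to 1 in 9mCON and 0 to 5 in 9mTSCmKO. Aqp8 was picked for this difference, which is therefore given without a test.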

How the results depend on the processing

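No call of the 4 genes reversed in the alternatives run. Leaving out 1 library kept the side of the threshold 619 times and lost a call 21 times, and the other alternatives kept it 353 times, lost 7 calls and gained 3, with 1 adjusted p left out that DESeq2 gave as missing. Aqp11 with rapamycin in 9mTSCmKO lost its call with only the groups compared (log2 -0.94). Aqp1 with age in CON+RM lost it without the filter (-0.43), with insert size (-0.56) and with only the groups compared (-0.46), and Aqp1 with age in TSCmKO with insert size (-0.55). With 1 library left out, these 3 ran from -1.12 to -0.78, from -0.57 to -0.35 and from -0.47 to -0.33, and Aqp1 between genotypes under rapamycin at 3 months from -0.63 to -0.45. The age-by-rapamycin term of Aqp4 in TSCmKO lost its call at -1.80 without the filter and -1.86 with only the groups compared, and ran from -2.40 to -1.61 without 1 library. Calls gained were the age-by-genotype term of Aqp4 under rapamycin, -1.27 with only the groups compared and -1.25 with DESeq2, and Aqp11 with age in TSCmKO+RM, -0.63 with limma. The causes were not tested.

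Replicate numbers showed no pairing of the libraries. After group means were removed, same-numbered libraries of different groups had a median correlation of -0.005 over 140 pairs (range -0.34 to 0.38). For libraries with other numbers the median was -0.003 over 560 pairs (range -0.44 to 0.52). With the replicate block no call of the 4 genes changed, and Aqp4 with rapamycin in 9mTSCmKO was 1.53 on the log2 scale. The number of genes called moved by over 1.5 times in these fits. With only the groups compared it went from 4410 to 2512 (rapamycin in 9mTSCmKO), 1604 to 580 (9mCON), 92 to 378 (3mCON), 1359 to 2563 (genotype under rapamycin at 3 months), 138 to 34 (age in CON), 259 to 105 and 127 to 47 (age by rapamycin in TSCmKO and CON) and 30 to 47 (age by genotype). Without the filter it was 38 (3mCON), 83 (age in CON), 141 and 77 (age by rapamycin). With insert size it was 25 (age in CON), 1702 against 5064 (age in TSCmKO) and 1659 against 3087 (TSCmKO+RM). With DESeq2 it was 171, 375, 494, 255 and 85, and with limma 72 and 48, in the order 3mCON, age in CON, age by rapamycin in TSCmKO and CON, and age by genotype, of which limma moved the last 2. Without 1 library, the 5 counts ran from 38 to 65, 30 to 942, 110 to 466, 37 to 267 and 16 to 46.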

Other observations

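The genes whose levels followed Aqp7 most closely over the 40 libraries were 9930111J21Rik2 (Pearson's r 0.805), Dpysl2 (0.801), Gm4117 (0.769), Ppcdc (0.762) and Mcc (0.758). Of these 5, 2 share stretches of 31 bases with Aqp7, as do 3.67% of all genes in the tables, and the part of shared reads in their likeness was not tested. Those most like Aqp11 were Rab33b (0.590), Bace2 (0.501), Trim12a (0.493), Zfp979 (0.490) and Dusp6 (0.490). The libraries share their groups and depth, and these values are a description.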
